A study of Mus musculus with 9 samples.

Results

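Kidneys of IgA nephropathy model mice given a herbal granule were compared with kidneys of the same model given saline, over the whole measured transcriptome. The 6 libraries compared, 3 in each arm, are part of 9 bulk RNA sequencing libraries of mouse kidney in the series. Both arms carried Itgam-IRES-hCD89, a knock-in that places human CD89, a receptor for the constant part of IgA, behind Itgam, the gene of the myeloid integrin chain CD11b. The arm called IgAN was gavaged with saline. The arm called GQYS was gavaged every day for 5 months with Gui-qi-yi-shen granules, a mixture of traditional Chinese medicine herbs. A further group of 3 libraries, called WT, came from C57/BL6 mice without the knock-in that received saline. It enters here through the estimate of spread and as a reference for levels. No wild-type mice with granules are among the samples analysed here, so an action of the granules that does not depend on the knock-in cannot be told apart from one that does. The knock-in follows Itgam, so the human receptor is tied to myeloid cells, and the deposited table has no row under its names with which to check it. The labels give no age and do not say that the libraries of a group are separate animals, so each p-value reflects library-to-library spread that may be technical in part.

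Genes entered the comparison when they reached at least 1 FPKM (fragments scaled to gene length and library size, a level that can be compared between genes) in at least 3 of the 9 libraries. That left 11617 of 26139 genes, and the other 14522 were not tested. Differences are given as GQYS minus IgAN on the log2(FPKM + 1) scale, which understates the change of genes with low values. A gene is called when limma, a linear model fitted to all genes at once, gave an adjusted p under 0.05 over all 11617 genes.

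IgA nephropathy is a glomerular disease in which IgA-containing immune complexes lodge in the mesangium. Myeloid cells with Fc receptors for IgA can bind such complexes, and the injured glomerulus and tubule then release chemokines and display adhesion molecules that draw in further leukocytes. Cytokine signals in this setting run largely through NF-kB and STAT3, which switch on acute-phase genes and also their own inhibitors. The tubular epithelium answers injury and protein load with stress responses of the endoplasmic reticulum, the heat shock system and the cell cycle inhibitors.

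The libraries held between 30564947 and 38161564 reads assigned to genes, and between 11152 and 11402 genes reached 1 FPKM in each. Defining kidney genes were abundant in all 9 libraries. Slc34a1, the phosphate carrier of the proximal tubule, lay between 1437 and 1889 FPKM, Umod of the thick ascending limb between 942 and 1665, and Aqp2, the water channel of the collecting duct, between 74.4 and 174. Nphs1, nephrin of the podocyte slit diaphragm, lay between 3.80 and 6.02 FPKM and Pecam1 of the endothelium between 12.5 and 23.5. The summed level of the 9 adrenal genes in the table was at most 0.430 FPKM in any library. Other neighbouring tissue was uneven. Adipoq of fat was at 2.89 FPKM in WT replicate 3 and at most 0.0796 in any other library. Summed urothelial genes spanned 5.31 to 39.7 FPKM in WT, 10.5 to 42.7 in IgAN and 6.90 to 11.2 in GQYS. IgAN replicate 1 stood apart within its group for injury genes. Havcr1, the tubular injury marker KIM-1, was at 43.8 FPKM there and at 1.33 and 1.79 in the other IgAN libraries, and differences of single genes that move by more than 1.5 times when that library is left out are given both ways.

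In all, 23 genes were called, 0.198% of those tested. In GQYS, 19 genes were lower (0.164% of all tested) and 4 were higher (0.0344%). With the value distributions of the libraries made equal (quantile normalization), the split was 1 higher and 15 lower. The IgAN means of the 19 lower genes spanned 2.50 FPKM (Retnlg) to 246 FPKM (Herpud1). In all 23 called genes the ranges of the 3 GQYS and 3 IgAN libraries did not overlap. Without regard to a test, the ranges also lay apart in 1143 genes that were higher in GQYS (9.84%) and 1079 that were lower (9.29%). These shares of all tested genes are the background for every count of ranges apart given for a list below. For counts of called members the background is 0.164% lower and 0.0344% higher. A gene can pass the filter through the group in which it is high, so list counts describe tested members only. An unadjusted p under 0.05 was reached by 1211 genes, 642 of them higher and 569 lower. The median difference over all tested genes was 0.0064, with quartiles of -0.10 and 0.13, and the median width of the 95% interval on either side of a difference was 0.316. Large differences were mostly downward, since 55 genes lay at least 1 log2 unit lower and 8 at least 1 log2 unit higher.

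**Figure D1:**
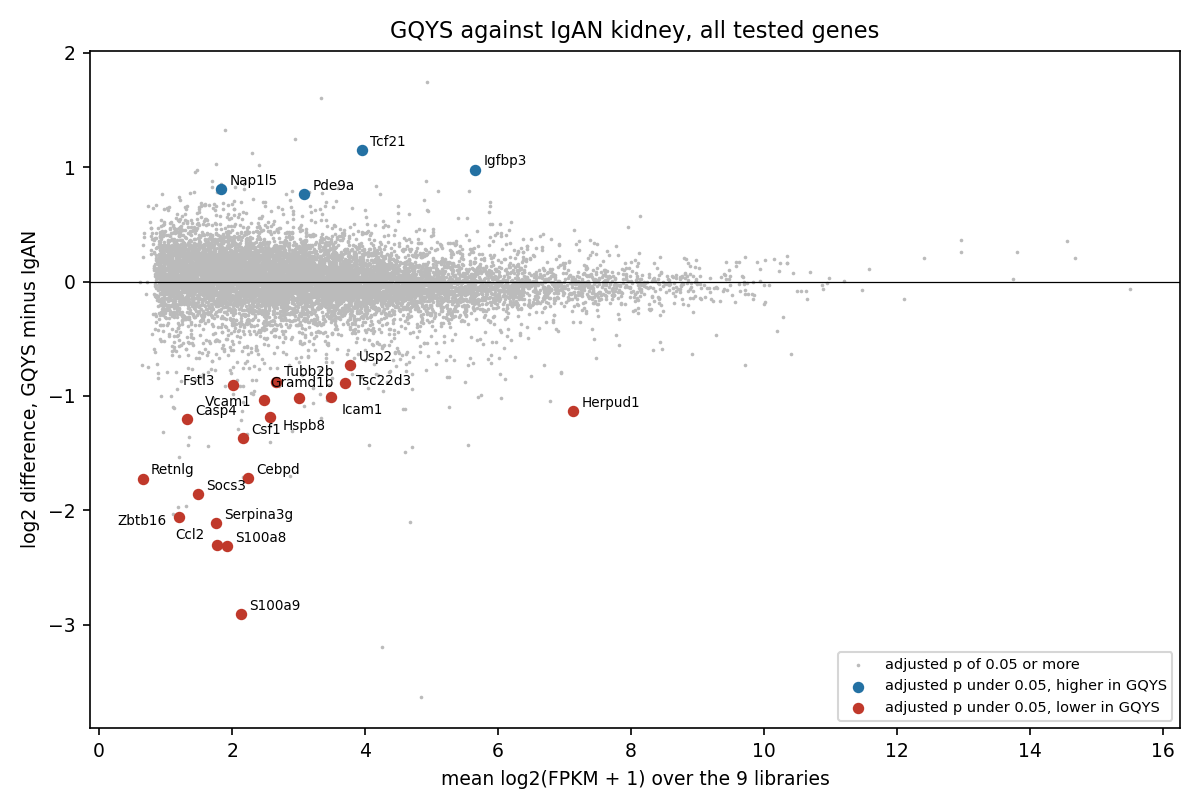
Mean log2(FPKM + 1) over the 9 libraries (x axis) and the log2 difference GQYS minus IgAN (y axis) of the 11617 tested genes, 1 point a gene. Red points are the 19 genes called lower in GQYS and blue points the 4 called higher; the lower and upper quartiles are -0.10 and 0.13, and S100a9 is the lowest of the called genes at -2.91.

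The number of calls depended on single libraries. Leaving out GQYS replicate 3 gave 6 calls and leaving out GQYS replicates 1 and 2 in turn gave 11 and 12. Leaving out IgAN replicates 1 and 2 in turn gave 9 and 10, and leaving out WT replicate 1 gave 54. Retnlg, S100a9, Serpina3g, Csf1, Zbtb16 and Socs3 were called with each of the 9 libraries left out in turn. The calls of Fstl3 and Casp4 ended without GQYS replicate 3 (limma adjusted p of 0.0642 and 0.0570), and that of Cebpd ended without any one GQYS library (up to 0.0841). Those of S100a8 and Herpud1 ended without any one IgAN library or GQYS replicates 2 or 3 (up to 0.0841 for both). Gramd1b ended without IgAN replicates 1 or 2 and GQYS replicates 2 or 3 (up to 0.101), and Pde9a without any one IgAN library and GQYS replicates 1 or 3 (up to 0.197). The calls of Ccl2, Vcam1, Icam1, Hspb8, Tubb2b, Tsc22d3, Usp2 and Nap1l5 ended without any one of the 6 IgAN and GQYS libraries. Their highest limma adjusted p in these fits was 0.101, 0.114, 0.161, 0.200, 0.293, 0.293, 0.293 and 0.281, in that order. Leaving out WT replicate 2 also ended Icam1, Hspb8, Usp2 and Nap1l5, and leaving out WT replicate 3 ended Hspb8, Tubb2b, Tsc22d3, Usp2 and Nap1l5. Tcf21 ended without IgAN replicates 1 or 2, any one GQYS library or WT replicate 2 (up to 0.200). Igfbp3 ended under the same omissions or without WT replicate 3 (up to 0.293). No called gene turned direction under any of the 23 alternatives that could be computed for it.

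Genes of neutrophils were among those with the largest differences. S100a9, which with S100a8 forms the granulocyte protein calprotectin, was at 16.5, 16.7 and 13.5 FPKM in the IgAN libraries, at 0.911, 1.52 and 1.22 in GQYS, and at 1.63, 1.80 and 0.679 in WT. The GQYS values lay within the WT range and below every IgAN value, and S100a9 fell by 2.91 on the log2 scale (SE 0.20, limma adjusted p = 0.000269), or 12.8-fold in mean FPKM. S100a8 was at 13.7, 9.96 and 10.2 FPKM in IgAN and at 2.05, 1.56 and 0.895 in GQYS, against 1.67, 0.935 and 0.165 in WT. It fell by 2.31 (SE 0.28, limma adjusted p = 0.0123). Retnlg, a resistin-like gene expressed by neutrophils, rested on few reads, with 46, 58 and 46 in the IgAN libraries, 0, 3 and 1 in GQYS and 0, 0 and 3 in WT. Its levels of 2.47, 2.78 and 2.26 FPKM in IgAN and 0, 0.131 and 0.0525 in GQYS did not overlap, and it fell by 1.72 (SE 0.11, limma adjusted p = 0.000269). No fold is given for Retnlg because of those low counts.

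The neutrophil list held 17 genes of the table, of which 5 were tested: S100a8, S100a9, Retnlg, Lcn2 and Il1b. The ranges of all 5 lay apart downward, beside 9.29% of all tested genes, and 3 were called lower, beside 0.164%. Their median difference was -1.72, beside 0.0064 over all tested genes. That median is the value of Retnlg and moved with the settings, to -2.92 with voom (limma's method for counts) on recovered reads and -0.24 with no filter on low values, which brings in the neutrophil genes near 0. Members pass the filter partly through the group in which they are high, as Retnlg and Il1b reached 1 FPKM in the IgAN libraries alone, so these counts describe the tested members only. Il1b, the gene of interleukin-1 beta, was at 1.70, 1.91 and 2.14 FPKM in IgAN and at 0.442, 0.815 and 0.828 in GQYS (difference -0.79, limma adjusted p = 0.0946). Lcn2, neutrophil gelatinase-associated lipocalin and also a product of injured tubules, was at 24, 5.43 and 5.68 in IgAN and at 1.43, 2.15 and 2.99 in GQYS. It differed by -1.71 (limma adjusted p = 0.265), and by -1.07 without IgAN replicate 1.

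Below the filter, and so without a test, 2 neutrophil receptor genes were chosen after their values were seen. Csf3r, the receptor of granulocyte colony-stimulating factor, was at 1.23, 0.962 and 0.832 FPKM in IgAN and at 0.212, 0.177 and 0.324 in GQYS. Cxcr2, a receptor of neutrophil-attracting chemokines, was at 0.209, 0.448 and 0.383 against 0.0191, 0.0595 and 0.0102. Both sets of ranges lay apart. Among the other untested members of the list, Mmp8, Mmp9 and Fpr1 also lay apart downward. Ngp, Camp, Ltf, Wfdc21, Stfa2l1, Ly6g and Elane did not. Elane, Ngp, Camp and Ltf, genes of granule proteins made in neutrophil precursors, were also picked after their values were seen. Elane was at 0 in all 9 libraries, while Ngp reached 0.10 FPKM, Camp 0.546 and Ltf 0.227. Mmp8 and Mmp9, whose products are also stored in granules, reached 0.333 and 0.468. Ly6g, a surface marker of mature neutrophils, reached 0.0319. Itgam itself, the gene that carries the knock-in, was at 0.433, 0.261 and 0.172 in IgAN and at 0.0828, 0.0283 and 0.143 in GQYS. Its WT values of 0.340, 0.716 and 0.428 overlapped IgAN and lay above every GQYS value. In bulk tissue, fewer cells of a type and less RNA per cell cannot be told apart. The summed level of the 17 neutrophil genes was 36 to 61.8 FPKM in IgAN, 5.64 to 6.86 in GQYS and 2.70 to 8.02 in WT, so the 2 knock-in arms did not overlap and GQYS lay inside the WT range. In the knock-in arms that sum comes mostly from the tested members described above, Lcn2 among them, so it repeats their values.

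No gene of the 20 tested for monocytes and macrophages was called. Their ranges lay apart downward in 7 and upward in 0, beside 9.29% and 9.84% of all tested genes, and the median difference was -0.28, or -0.17 without IgAN replicate 1. Lyz2, lysozyme of myeloid cells, was at 62.6, 49.2 and 37.5 FPKM in IgAN and at 26.1, 21.7 and 34.3 in GQYS, with WT between 19.2 and 60.8. Its difference was -0.83 (SE 0.37, limma adjusted p = 0.465), and the WT spread covered nearly all of both ranges. Csf1r, the receptor by which macrophages sense CSF1, was at 19.5, 16.9 and 16.3 in IgAN and at 14.7, 13.2 and 11.9 in GQYS (difference -0.38, limma adjusted p = 0.537). C1qb, a complement subunit made by resident macrophages, differed by -0.56, Cd14 by -0.57, Fcgr3 by -0.49 and Cd68 by -0.45, all with ranges apart and limma adjusted p between 0.345 and 0.538. Without IgAN replicate 1 the differences of C1qb, Cd14 and Cd68 were -0.31, -0.36 and -0.26.

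Of the growth factors and chemokines that act on these cells, 2 were called. Csf1, the growth factor of macrophages, was at 7.60, 6.46 and 7.29 FPKM in IgAN and at 1.85, 2.09 and 2.52 in GQYS, with WT at 2.64, 2.58 and 2.37. The GQYS libraries overlapped WT or lay below it, and Csf1 fell by 1.37 (SE 0.11, limma adjusted p = 0.001), 3.30-fold in mean FPKM. Ccl2, which attracts monocytes, was at 7.71, 8.35 and 8.75 in IgAN and at 1.07, 0.691 and 0.871 in GQYS, with WT spread from 0.321 to 2.79. It fell by 2.31 (SE 0.30, limma adjusted p = 0.0167), 9.41-fold in mean FPKM.

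Among 17 tested chemokines, 7 had ranges apart downward and 0 upward, beside 9.29% and 9.84% of all tested genes. Ccl2 was the one called, and the median difference was -0.30. That median was -0.09 without IgAN replicate 1 and -0.15 without GQYS replicate 2. Ccl12, a further monocyte attractant, was at 10.6, 2.45 and 2.68 FPKM in IgAN and at 0.389, 0.0990 and 0.417 in GQYS (difference -2.03, limma adjusted p = 0.106, or -1.46 and 0.0598 when IgAN replicate 1 was left out). Cxcl10, an interferon-inducible attractant of T cells, was at 8.37, 8.28 and 9.69 against 4.47, 3.08 and 5.25 (-0.91, limma adjusted p = 0.150). Cxcl1, which attracts neutrophils, was at 5.17, 1.92 and 1.06 against 0.125, 0.361 and 0.568 (-1.32, limma adjusted p = 0.191). All 3 had ranges apart, with the highest value of Ccl12 and Cxcl1 in IgAN replicate 1, without which Cxcl1 differed by -0.88.

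The 2 called adhesion molecules are the endothelial and epithelial ligands of leukocyte integrins. Vcam1 was at 8.43, 7.72 and 8.27 FPKM in IgAN, at 3.54, 3.13 and 3.75 in GQYS and at 3.46, 3.82 and 2.43 in WT. It fell by 1.03 (SE 0.14, limma adjusted p = 0.0174). Icam1, a ligand of the CD11b integrin, was at 18.2, 16.1 and 18.1 in IgAN, at 8.34, 7.01 and 9.28 in GQYS and at 8.96, 7.86 and 5.80 in WT. It fell by 1.01 (SE 0.15, limma adjusted p = 0.0457). For both genes IgAN was more than 2-fold above GQYS in mean FPKM (2.34-fold for Vcam1 and 2.13-fold for Icam1), and GQYS and WT overlapped. Adhesion genes did not all lie lower, and the median was -0.12. Of 12 tested, 6 had ranges apart downward and 2 upward, beside 9.29% and 9.84% of all tested genes. Icam2, an endothelial relative of Icam1, was at 3.70, 3.75 and 4.02 in IgAN and at 5.32, 4.73 and 4.87 in GQYS (0.31, limma adjusted p = 0.348). Alcam, which binds CD6 on T cells, was at 7.92, 6.63 and 4.88 against 4.33, 4.47 and 4.11 (-0.48, limma adjusted p = 0.373).

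**Figure D2:**
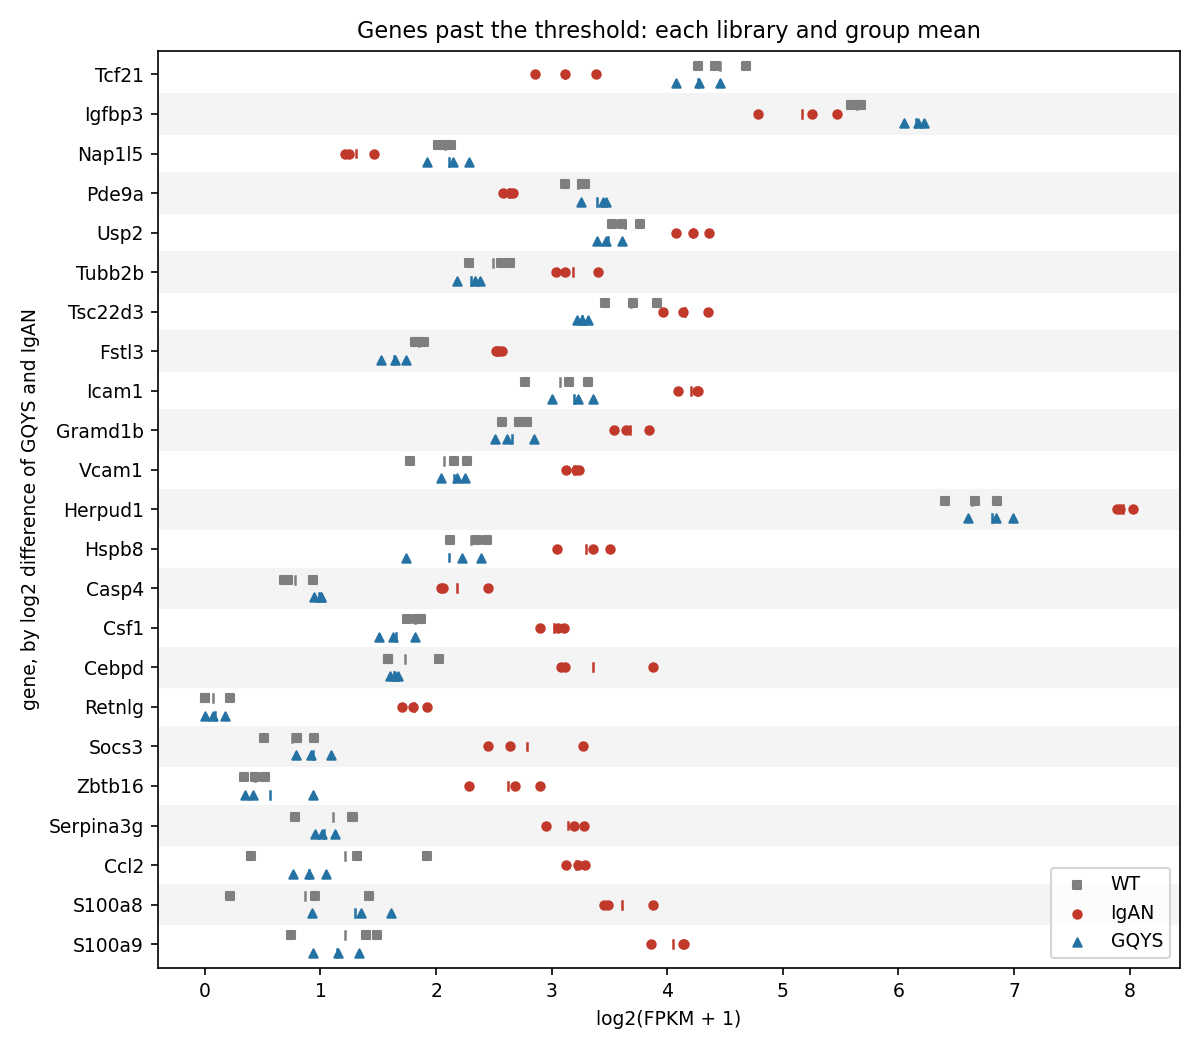
FPKM of the 23 called genes in each of the 9 libraries as log2(FPKM + 1), 1 point a library and a short bar at each group mean, with WT, IgAN and GQYS in separate colours. The IgAN points lie above the GQYS points in the 19 lower genes and below them in the 4 higher ones, without overlap, and GQYS overlaps WT in 16 of the 19 and 3 of the 4.

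Called genes of the IL-6 and acute-phase response lay lower as well. Socs3, the feedback inhibitor of STAT3 signalling, was at 8.68, 5.24 and 4.46 FPKM in IgAN, at 0.884, 0.728 and 1.13 in GQYS and at 0.926, 0.738 and 0.426 in WT, and fell by 1.86 (SE 0.21, limma adjusted p = 0.00669). Cebpd, a transcription factor of the acute-phase response, was at 13.7, 7.46 and 7.67 in IgAN and at 2.12, 2.18 and 2.03 in GQYS, with WT between 2.0 and 3.07. It fell by 1.72 (SE 0.21, limma adjusted p = 0.0123), and the 3 GQYS libraries were nearly equal. Serpina3g, a serine protease inhibitor gene, was at 8.69, 6.73 and 8.13 in IgAN and at 1.19, 1.01 and 0.937 in GQYS. It fell by 2.11 (SE 0.16, limma adjusted p = 0.0004), but near-identical Serpina3 copies could share its reads, so the value is uncertain.

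Of 18 tested genes of the IL-6 family, SOCS and C/EBP list, 2 were called lower, beside 0.164% of all tested genes. The median was -0.32. Ranges lay apart downward in 6 and upward in 0, beside 9.29% and 9.84% of all tested genes. Osmr, the receptor of oncostatin M, was at 8.46, 4.59 and 4.71 FPKM in IgAN and at 2.32, 2.52 and 2.36 in GQYS (-0.98, limma adjusted p = 0.103). Stat3 was at 26.9, 19.1 and 17.4 against 11, 14 and 12.6 (-0.69, limma adjusted p = 0.205). Both genes reached their highest value in IgAN replicate 1, and their GQYS levels were close to WT. Of 8 tested acute-phase genes, 3 had ranges apart downward and 1 upward, beside 9.29% and 9.84% of all tested genes. In this list 1 gene was called, and the median of -0.50 was -0.25 without IgAN replicate 1. Hp, haptoglobin, which binds free haemoglobin, was at 1.92, 1.26 and 1.96 against 0.599, 0.217 and 0.736 (-0.84, limma adjusted p = 0.257). Apcs, serum amyloid P, was the one with ranges apart upward, at 1.38, 1.09 and 0.850 in IgAN and 2.17, 1.81 and 1.6 in GQYS (0.44, limma adjusted p = 0.426).

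Casp4, the caspase that senses bacterial lipopolysaccharide inside cells and cleaves gasdermin D, was at 4.46, 3.13 and 3.17 FPKM in IgAN and at 1.0, 0.926 and 1.01 in GQYS. It fell by 1.2 (SE 0.13, limma adjusted p = 0.00669), and its GQYS libraries stayed just above the WT range of 0.608 to 0.914. Of 10 tested caspase, inflammasome and pyroptosis genes it was the one called. Among the 10, 5 had ranges apart downward and 1 upward, beside 9.29% and 9.84% of all tested genes. Differences were positive in 5 members and negative in 5. Nlrc4, an inflammasome sensor, was at 1.90, 2.26 and 2.24 in IgAN and at 1.41, 0.989 and 0.889 in GQYS (-0.59, limma adjusted p = 0.395). Gsdmd, the pore-forming gasdermin D, was at 2.86, 2.53 and 2.30 against 1.58, 2.20 and 1.64 (-0.35, limma adjusted p = 0.540). Both had ranges apart, but WT spanned 0.730 to 2.45 for Nlrc4 and 1.38 to 2.79 for Gsdmd, nearly the whole span of the knock-in arms.

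Complement genes lay in both directions without a call. Of 19 tested, 6 had ranges apart downward and 3 upward, beside 9.29% and 9.84% of all genes. C3, the central component, was at 5.94, 4.80 and 4.97 FPKM in IgAN and at 2.84, 3.11 and 3.09 in GQYS (-0.63, limma adjusted p = 0.0842). Clu, clusterin, an inhibitor of the membrane attack complex and a marker of tubular damage, was at 244, 163 and 164 against 76.1, 127 and 75 (-1.05, limma adjusted p = 0.173, and -0.85 without IgAN replicate 1). Both were lower in every GQYS library than in any IgAN library. C7, a component of that complex, was at 5.02, 5.4 and 4.35 against 2.0, 2.63 and 3.40 (-0.70, limma adjusted p = 0.174). For C3 the GQYS libraries overlapped WT.

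To show where binding letters of the factors named above occur near these genes, the 250 bases before the start of each gene were read from RefSeq promoter windows on GRCm38.p6. The submitters' processing notes name GRCm39 for the table, so these coordinates belong to the RefSeq windows alone. Windows were found for 16 of the 23 called genes, 13 lower and 3 higher. A kappaB-like core, GGNNTTTCC on either strand, letters that NF-kB is known to bind, occurred in 4 of the 13 lower genes, in 4.93% of all 32851 windows and in 6.15% of the 9233 tested genes with a window. The windows of those 4 genes are shown because NF-kB is a known activator of such promoters, with each match in capitals, written on the strand of the gene. Icam1 lies at chr9:21015690-21015939 on the plus strand, with matches beginning 153 and 84 bases before the start. Csf1 lies at chr3:107760470-107760719 on the minus strand, with its match at 154 bases before the start. Casp4 lies at chr9:5308599-5308848 on the plus strand, with matches at 92 and 14 bases before, and Serpina3g at chr12:104235897-104236146 on the plus strand, with its match at 84 bases before.
Icam1: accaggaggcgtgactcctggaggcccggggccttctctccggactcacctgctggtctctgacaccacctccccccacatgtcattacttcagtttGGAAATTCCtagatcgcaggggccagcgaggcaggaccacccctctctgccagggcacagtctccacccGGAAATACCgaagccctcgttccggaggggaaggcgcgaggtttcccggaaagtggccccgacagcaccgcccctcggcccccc
Csf1: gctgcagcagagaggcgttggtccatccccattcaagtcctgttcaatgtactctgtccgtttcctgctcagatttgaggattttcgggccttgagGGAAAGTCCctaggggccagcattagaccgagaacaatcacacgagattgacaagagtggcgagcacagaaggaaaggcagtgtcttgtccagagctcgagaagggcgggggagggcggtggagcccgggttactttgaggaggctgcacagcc
Casp4: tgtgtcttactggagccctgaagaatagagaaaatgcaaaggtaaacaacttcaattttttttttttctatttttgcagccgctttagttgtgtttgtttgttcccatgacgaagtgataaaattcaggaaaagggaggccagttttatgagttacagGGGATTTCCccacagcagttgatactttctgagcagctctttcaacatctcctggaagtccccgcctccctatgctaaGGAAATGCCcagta
Serpina3g: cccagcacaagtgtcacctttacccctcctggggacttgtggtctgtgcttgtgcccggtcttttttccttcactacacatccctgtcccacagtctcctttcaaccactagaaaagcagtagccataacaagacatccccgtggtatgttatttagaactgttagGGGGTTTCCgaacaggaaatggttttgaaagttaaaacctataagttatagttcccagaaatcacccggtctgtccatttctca

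A C/EBP-like core, TTGCNNAA on either strand, occurred in 3 of the 13 lower genes (Hspb8, Retnlg and S100a9), in 9.56% of all windows and in 9.0% of tested genes. A STAT-like core, TTCNNNGAA, which reads the same on both strands as a pattern, occurred in 4 of the 13 (Icam1, Serpina3g, Socs3 and Tsc22d3), in 7.02% of all windows and 6.94% of tested genes. In Icam1 and Serpina3g, which hold both, the STAT-like match begins 42 and 33 bases before the start and does not overlap a kappaB-like match. The window of S100a9 at chr3:90695722-90695971 on the minus strand has its C/EBP-like match 236 bases before the start. That of Socs3 at chr11:117969367-117969616 on the minus strand has its STAT-like match 154 bases before the start, and both are shown with the match in capitals.
S100a9: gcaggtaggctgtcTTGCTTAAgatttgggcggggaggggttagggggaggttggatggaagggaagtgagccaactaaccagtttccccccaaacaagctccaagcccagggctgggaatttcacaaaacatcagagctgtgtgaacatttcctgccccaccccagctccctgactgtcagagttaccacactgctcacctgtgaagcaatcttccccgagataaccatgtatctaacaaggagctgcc
Socs3: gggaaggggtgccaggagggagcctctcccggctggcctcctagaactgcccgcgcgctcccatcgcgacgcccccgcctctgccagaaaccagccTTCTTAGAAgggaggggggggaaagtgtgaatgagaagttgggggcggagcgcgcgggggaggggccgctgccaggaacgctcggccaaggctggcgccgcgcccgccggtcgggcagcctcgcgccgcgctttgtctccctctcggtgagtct

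Other patterns were found in few of these windows. A heat shock-like core, GAANNTTC, and the E-box CACGTG bound by clock factors were in 0 of the 13 lower windows, and in 6.69% and 6.02% of all windows. A TATA-like core, TATAAA, was in 2 of the 13 lower windows (Fstl3 and S100a8), in that of Nap1l5 among the 3 higher, and in 12.4% of all. A match describes letters and not a bound factor, and the lack of one concerns these 250 bases only.

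Transcripts of the NF-kB system itself lay lower without a call. Of 14 tested subunit and feedback genes, 10 had ranges apart downward and 0 upward, beside 9.29% and 9.84% of all tested genes. All 14 had negative differences, with a median of -0.44 (-0.30 without IgAN replicate 1). Nfkbia, the inhibitor IkB alpha and itself an NF-kB target, was at 24.3, 17.7 and 18.6 FPKM in IgAN and at 13.1, 12.7 and 14.2 in GQYS (-0.55, limma adjusted p = 0.266). Nfkbie, a further inhibitor, was at 2.67, 2.26 and 2.92 against 0.979, 1.64 and 1.49 (-0.62, limma adjusted p = 0.147), and Tnip1, a partner of the A20 brake, differed by -0.36 (0.218). The subunits Nfkb1 (-0.28, limma adjusted p = 0.441) and Nfkb2 (-0.53, 0.235, and -0.35 without IgAN replicate 1) and the survival gene Birc3 (-0.54, 0.221) also had ranges apart.

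The TNF superfamily had no called member among 10 tested. It had 4 ranges apart downward and 0 upward, beside 9.29% and 9.84% of all tested genes. Its median of -0.23 was -0.13 without IgAN replicate 1. Tnfrsf12a, the TWEAK receptor Fn14, induced in injured tubules, was at 179, 25.7 and 53.5 FPKM in IgAN and at 12.8, 14.3 and 14.6 in GQYS, where the libraries were close together and near WT (13 to 24.3). Its difference of -2.10 had a limma adjusted p of 0.191 and was -1.36 without IgAN replicate 1. Tnfrsf21 was at 88.7, 69.5 and 66.9 against 60.2, 41.3 and 54.1 (-0.53, limma adjusted p = 0.261). Tnfrsf1a, the main TNF receptor, overlapped between the arms at 37, 23.4 and 28.2 against 22.9, 23.1 and 23.9.

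**Figure D3:**
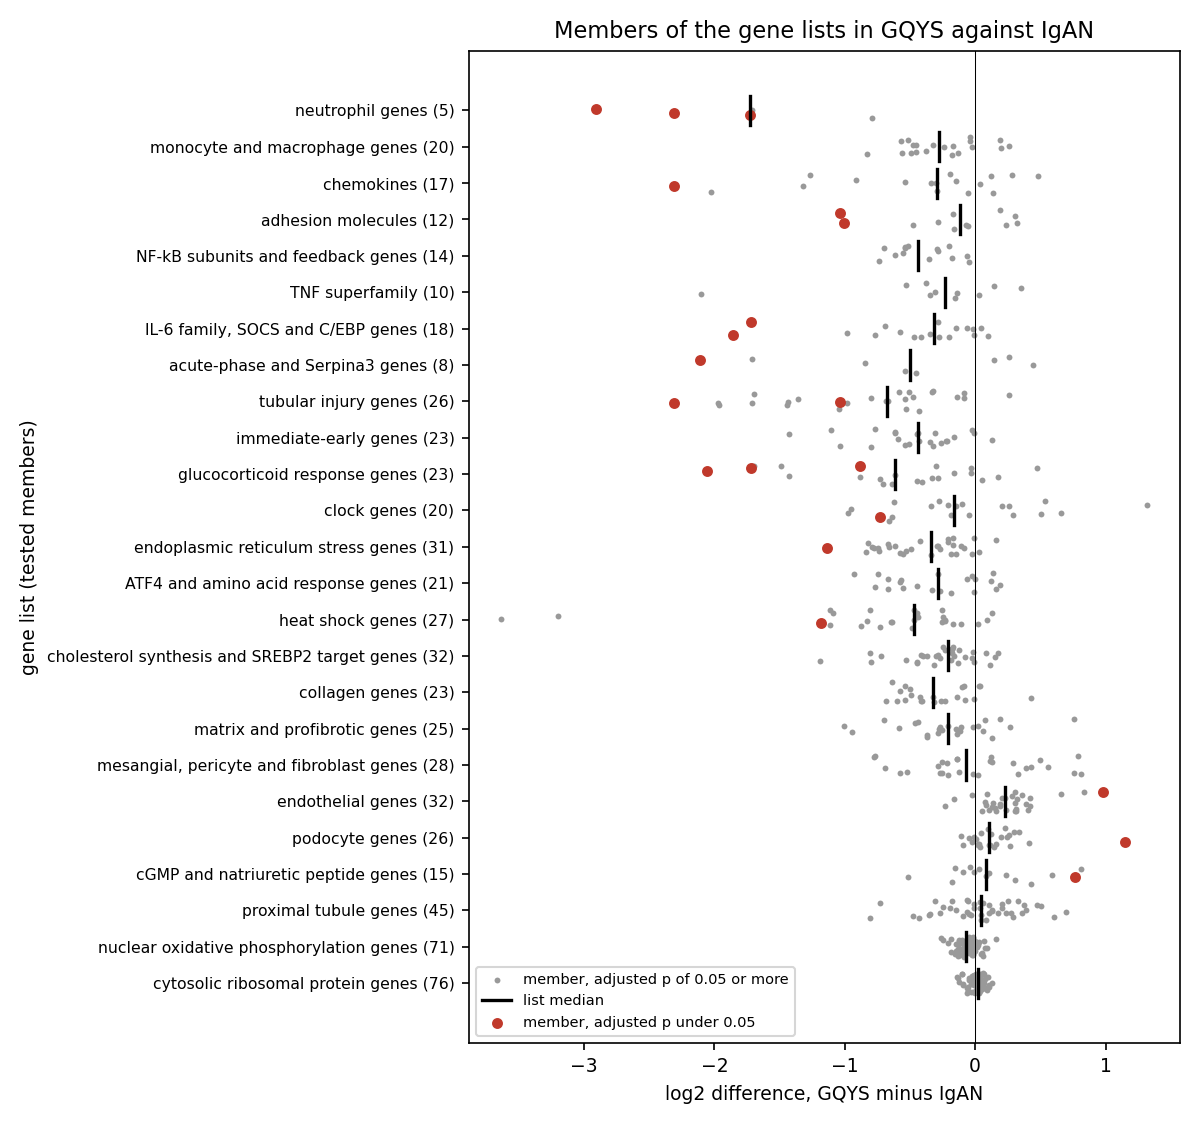
Log2 difference GQYS minus IgAN of every tested member of 25 gene lists, 1 point a gene and 1 row a list, with the list median as a bar. The medians run from -1.72 for the 5 tested neutrophil genes to 0.23 for the 32 tested endothelial genes, and red points are called members.

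Genes induced by glucocorticoid hormones included 3 called lower of 23 tested (Zbtb16, Tsc22d3 and Cebpd), beside 0.164% of all tested genes. The list median was -0.62. Zbtb16 reached 1 FPKM in the IgAN libraries alone, so it entered these counts through the group in which it is high. Of the 23, 9 had ranges apart downward and 1 upward, beside 9.29% and 9.84% of all tested genes. Zbtb16, the transcription factor PLZF, was at 6.46, 5.41 and 3.88 FPKM in IgAN and at 0.914, 0.335 and 0.272 in GQYS, with WT between 0.266 and 0.436. It fell by 2.06 (SE 0.19, limma adjusted p = 0.00193), 10.4-fold in mean FPKM. Tsc22d3, the anti-inflammatory leucine zipper GILZ, was at 19.4, 16.6 and 14.6 in IgAN and at 8.96, 8.57 and 8.31 in GQYS, which was below all 3 WT libraries (14, 10.007 and 12). It fell by 0.88 (SE 0.14, limma adjusted p = 0.0467). Fkbp5, a co-chaperone of the glucocorticoid receptor, was at 61.7, 41.2 and 31.4 against 16.2, 16.3 and 12 (-1.49, limma adjusted p = 0.0946). Sgk1, a kinase that raises sodium uptake, was at 38.2, 29.9 and 18.4 against 12.3, 16.5 and 15.2 (-0.88, limma adjusted p = 0.206).

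Of 20 tested clock genes, 7 had ranges apart downward and 3 upward, beside 9.29% and 9.84% of all tested genes. Usp2 was called lower, and the list median was -0.17. Usp2, a deubiquitinase under clock control, was at 19.5, 17.7 and 15.9 FPKM in IgAN, at 9.48, 11.2 and 10.1 in GQYS and at 11.2, 10.5 and 12.6 in WT, and fell by 0.73 (SE 0.12, limma adjusted p = 0.0481). The GQYS and WT libraries of Usp2 overlapped. Per2, an inhibitor of the clock and also inducible by glucocorticoids, was at 7.61, 6.33 and 5.01 against 2.78, 3.07 and 2.26 (-0.97, limma adjusted p = 0.205). Dbp, an output factor of the clock, lay the other way, at 1.10, 1.78 and 2.41 in IgAN and 5.16, 7.89 and 4.67 in GQYS (1.32, limma adjusted p = 0.0776). Every GQYS value of Dbp was above WT as well, which spanned 1.15 to 2.39. Cry2, a further inhibitor, was at 1.75, 2.19 and 1.99 against 3.0, 3.93 and 2.78 (0.50, limma adjusted p = 0.191). Clock itself overlapped, at 4.67 to 6.85 FPKM in IgAN and 4.93 to 6.77 in GQYS. The labels do not give the time of day at which tissue was taken, and its part in these values was not tested.

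Stress genes of the endoplasmic reticulum included 1 called gene of 31 tested, with a median of -0.34. Of the 31, 16 had ranges apart downward and 0 upward, beside 9.29% and 9.84% of all tested genes. Herpud1, which helps to clear misfolded proteins from the endoplasmic reticulum, was at 239.9, 261 and 236 FPKM in IgAN, at 126, 114 and 95.9 in GQYS and at 100.03, 83.6 and 115 in WT. It fell by 1.13 (SE 0.14, limma adjusted p = 0.0123), 2.19-fold in mean FPKM, and was the most abundant of the called genes. Hspa5, the chaperone BiP, was at 469, 529 and 459 in IgAN and at 426, 297 and 299 in GQYS (-0.53, limma adjusted p = 0.318), with GQYS replicate 1 close to IgAN. Syvn1, the ubiquitin ligase of this disposal route, was at 29.8, 25.6 and 23.6 against 17.5, 13.2 and 13.1 (-0.82, limma adjusted p = 0.192). Dnajb9, a BiP co-chaperone, was at 29.2, 33.1 and 34 against 20.004, 20.6 and 16.2 (-0.74, limma adjusted p = 0.206). In Syvn1 and Dnajb9 every GQYS library lay below every IgAN library, and GQYS overlapped WT. Ddit3, the pro-apoptotic factor CHOP, was at 8.87, 5.31 and 5.20 against 4.06, 3.85 and 3.75 (-0.58, limma adjusted p = 0.630, and -0.36 without IgAN replicate 1), and WT reached 12.3. The summed level of the list was 2910.2 to 3110.1 FPKM in IgAN and 2143 to 2634 in GQYS, with WT between 1878 and 2199.8.

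The ATF4 and amino acid response list had no call among 21 tested genes. It had 7 ranges apart downward and 0 upward, beside 9.29% and 9.84% of all tested genes. Its median was -0.29. Leaving out IgAN replicates 1 and 2 in turn gave -0.13 and -0.48, and leaving out GQYS replicate 1 gave -0.17. Chac1, which degrades glutathione and is a target of this arm, was at 1.29, 1.19 and 1.71 FPKM in IgAN and at 0.494, 0.490 and 0.305 in GQYS (-0.74, limma adjusted p = 0.0578). Nupr1, a stress-induced nuclear protein, was at 35.7, 19.7 and 20.2 against 14, 12.5 and 10.5 (-0.93, limma adjusted p = 0.170). GQYS and WT overlapped in both. Atf4 was at 101, 62.7 and 70.9 against 50.4, 42.1 and 51.7 (-0.67, limma adjusted p = 0.403). Slc7a1, a carrier of arginine and lysine, differed by -0.57 and Asns, asparagine synthetase, by -0.55, both with ranges apart.

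Heat shock genes gave 1 call of 27 tested and a median of -0.47. Of the 27, 18 had ranges apart downward and 0 upward, beside 9.29% and 9.84% of all tested genes. Hspb8, a small heat shock protein that works with Bag3 in selective autophagy, was at 7.24, 9.24 and 10.3 FPKM in IgAN and at 2.33, 4.22 and 3.67 in GQYS. It fell by 1.19 (SE 0.19, limma adjusted p = 0.0467), and GQYS overlapped WT (3.35 to 4.42). Bag3 was at 21.4, 20.1 and 18.5 against 9.49, 12.4 and 10.6 (-0.83, limma adjusted p = 0.0968). The stress-inducible Hspa1b showed the widest difference of the list, at 103, 105 and 99.5 in IgAN and 6.43, 7.92 and 7.78 in GQYS (-3.63, limma adjusted p = 0.0842). Its near-identical copy Hspa1a was at 65.7, 47.4 and 56.4 against 5.71, 4.51 and 5.49 (-3.20, limma adjusted p = 0.136), and the 2 genes may share reads. Their WT libraries were far apart, at 85.5, 6.42 and 30.5 for Hspa1b, so the spread pooled over the 3 groups was wide although each knock-in arm was tight. Hsph1, a partner of Hsp70, was at 54.1, 73.7 and 67.4 against 30.5, 36.7 and 23.5 (-1.09, limma adjusted p = 0.165), and Dnajb4 at 7.53, 8.08 and 8.46 against 4.30, 4.83 and 4.23 (-0.73, limma adjusted p = 0.0968).

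Tubular injury genes had 2 called lower of 26 tested members, beside 0.164% of all tested genes. They were Vcam1 and Ccl2, described above. The list had 13 ranges apart downward and 0 upward, beside 9.29% and 9.84% of all tested genes, and a median of -0.67. IgAN replicate 1 carried much of this, since the median was -0.41 without it and the summed level of the list was 2611 FPKM in that library against 1057 and 1284 in the other IgAN libraries and 911 to 1024 in GQYS. Havcr1 overlapped between the arms, with 0.296, 0.569 and 1.41 in GQYS beside the 43.8, 1.33 and 1.79 of IgAN (-1.97, limma adjusted p = 0.498, and -0.59 without IgAN replicate 1). Cdkn1a, the cell cycle inhibitor p21, was at 28, 11.2 and 9.53 against 3.76, 4.79 and 2.95 (-1.70, limma adjusted p = 0.103, and -1.25 with 0.0734 without IgAN replicate 1). For Cdkn1a all 3 IgAN libraries lay well above GQYS, and for Havcr1 they did not.

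Immediate-early genes, which answer acute stimulation within minutes, had no call among 23 tested and a median of -0.44 (-0.28 without IgAN replicate 1). Of the 23, 11 had ranges apart downward and 0 upward, beside 9.29% and 9.84% of all tested genes. Fos, Jun and Egr1 overlapped between the arms. Fos was at 2.57, 0.801 and 1.08 FPKM in IgAN and 0.608, 0.641 and 1.06 in GQYS, and Egr1 at 8.49, 3.49 and 3.15 against 2.39, 2.03 and 5.84, beside 71 in WT replicate 1. Other members lay apart: Maff was at 4.65, 1.95 and 3.0 against 0.809, 1.12 and 0.747 (-1.11, limma adjusted p = 0.106), Klf6 at 16.5, 12.1 and 12.2 against 6.95, 7.78 and 7.67 (-0.77, limma adjusted p = 0.0548), and Rhob at 49.7, 32.6 and 39 against 28.3, 27.1 and 26.2 (-0.54, limma adjusted p = 0.192).

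The remaining called lower genes belong to several functions. Fstl3, a secreted protein that binds and blocks activin, was at 4.75, 4.95 and 4.75 FPKM in IgAN and at 2.34, 2.13 and 1.88 in GQYS, below the WT values of 2.72, 2.56 and 2.53. It fell by 0.90 (SE 0.10, limma adjusted p = 0.00669), with the tightest IgAN libraries of any called gene relative to their mean. Gramd1b, which carries cholesterol from the plasma membrane to the endoplasmic reticulum, was at 13.3, 11.5 and 10.6 against 6.19, 5.13 and 4.69 and fell by 1.02 (SE 0.13, limma adjusted p = 0.0130). Tubb2b, a beta-tubulin, was at 9.56, 7.65 and 7.19 against 4.22, 4.06 and 3.54 and fell by 0.88 (SE 0.14, limma adjusted p = 0.0467). Akap12, a scaffold of protein kinase A, came next after the called genes, at 7.70, 5.79 and 5.28 against 3.06, 2.80 and 2.6 (-0.91, limma adjusted p = 0.0536). Csrp1, a LIM protein of smooth muscle and stroma, also missed the threshold, at 28.9, 29.9 and 32.9 against 18.5, 21.1 and 18.7 (-0.63, limma adjusted p = 0.0608).

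The 4 genes that rose were Tcf21, Igfbp3, Nap1l5 and Pde9a. Tcf21, a basic helix-loop-helix factor of podocytes and stroma, was at 6.23, 7.67 and 9.44 FPKM in IgAN, at 18.4, 15.9 and 20.9 in GQYS and at 24.7, 20.3 and 18.2 in WT. It rose by 1.15 (SE 0.17, limma adjusted p = 0.0304), 2.36-fold in mean FPKM, and GQYS overlapped WT. Igfbp3, a carrier of insulin-like growth factors made by endothelium, was at 26.5, 37.2 and 43.2 in IgAN and at 65.4, 73.5 and 71.1 in GQYS, above the WT values of 49.7, 50.1 and 47.3. It rose by 0.98 (SE 0.16, limma adjusted p = 0.0481). Nap1l5, an imprinted gene of the nucleosome assembly protein family, was at 1.76, 1.32 and 1.37 against 2.79, 3.42 and 3.86 and rose by 0.81 (SE 0.12, limma adjusted p = 0.0457). Pde9a, a phosphodiesterase specific for cGMP, was at 5.34, 4.98 and 5.25 against 10.1, 8.54 and 9.91 and rose by 0.76 (SE 0.10, limma adjusted p = 0.0207).

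Beside Tcf21, no gene of the 26 tested for podocytes was called. Ranges lay apart upward in 4 and downward in 1, beside 9.84% and 9.29% of all genes, with a median of 0.11 (0.21 without GQYS replicate 1 and 0.07 without GQYS replicate 2). Nphs1 was at 4.19, 4.38 and 5.17 FPKM in IgAN and 4.56, 6.02 and 4.94 in GQYS, so the arms overlapped. Pla2r1, a podocyte receptor known as the main autoantigen of membranous nephropathy, was at 1.11, 1.2 and 1.08 against 1.53, 1.99 and 1.55 (0.33, limma adjusted p = 0.345). The summed podocyte level was 401 to 434 FPKM in IgAN and 434 to 459 in GQYS.

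Endothelial genes lay higher more often than lower. Of 32 tested, 13 had ranges apart upward and 2 downward, beside 9.84% and 9.29% of all tested genes, and Igfbp3 was the one called. The median was 0.23, or 0.15 without IgAN replicate 1. The summed level was 566 to 577 FPKM in GQYS, above the 400.2 to 498 of IgAN and the 436 to 492 of WT. Esm1, endocan, a secreted product of activated endothelium, was at 12.4, 14.2 and 11.8 in IgAN and 19.1, 27.8 and 24.3 in GQYS (0.83, limma adjusted p = 0.0968). Emcn, endomucin of capillaries and veins, was at 35.2, 34.4 and 37.2 against 46.1, 45.2 and 46.2 (0.36, limma adjusted p = 0.173). The transcription factor Ets1 was at 5.09, 5.27 and 4.87 against 6.89, 7.77 and 6.85 (0.42, limma adjusted p = 0.296). The pan-endothelial Pecam1 overlapped, at 13.8, 18.5 and 18.9 against 17.2, 23.5 and 18.2 (0.19, limma adjusted p = 0.857), as did Flt1, a VEGF receptor (0.21, 0.787). Without IgAN replicate 1 these were 0.054 for Pecam1 and 0.073 for Flt1.

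**Figure D4:**
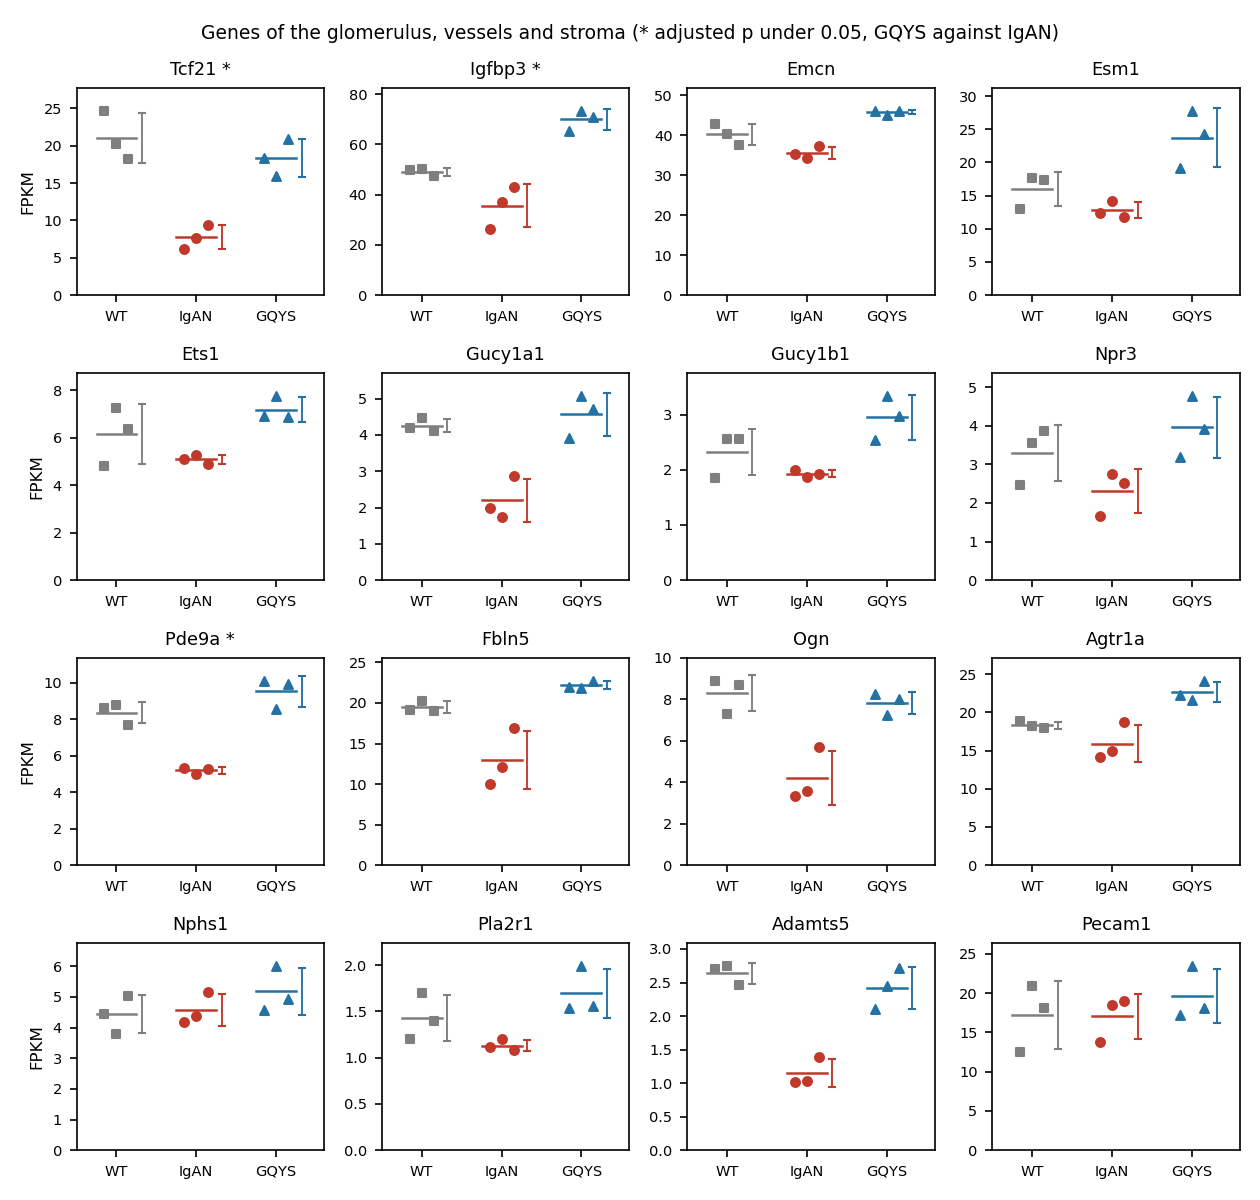
FPKM of 16 genes of podocytes, vessels, stroma and cGMP signalling, 1 panel a gene; points are the 3 libraries of each group, horizontal lines the mean and error bars the SD. Tcf21, Igfbp3 and Pde9a are the called genes, and Pecam1 and Nphs1 overlap between IgAN and GQYS.

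Mesangial, pericyte and fibroblast genes split, with no call. Of 28 tested, 9 lay apart upward and 6 downward, beside 9.84% and 9.29% of all tested genes. The median was -0.07 and lay between -0.17 and -0.01 over all alternatives. Fbln5, fibulin-5 of elastic fibres, was at 9.96, 12.1 and 16.9 FPKM in IgAN and 22, 21.9 and 22.8 in GQYS (0.76, limma adjusted p = 0.119). Ogn, the stromal proteoglycan osteoglycin, was at 3.35, 3.57 and 5.69 against 8.25, 7.23 and 8.01 (0.79, limma adjusted p = 0.124). Agtr1a, the angiotensin II receptor, was at 14.1, 14.9 and 18.7 against 22.2, 21.7 and 24.2 (0.50, limma adjusted p = 0.152). In all 3 genes IgAN replicate 3 was the IgAN library nearest to GQYS, and in Fbln5 and Ogn every IgAN library lay below WT. Pdgfrb, the marker of mesangial cells and pericytes, overlapped at 12.4, 6.89 and 8.32 against 8.10, 7.25 and 7.41, and Col1a1 did too.

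The cGMP and natriuretic peptide list had 1 call (Pde9a) of 15 tested. It had 5 ranges apart upward and 2 downward, beside 9.84% and 9.29% of all tested genes. Gucy1a1 and Gucy1b1 encode the subunits of the nitric oxide receptor guanylate cyclase. Gucy1a1 was at 2.0, 1.75 and 2.87 FPKM in IgAN and 3.92, 5.09 and 4.71 in GQYS (0.81, limma adjusted p = 0.0725), and Gucy1b1 at 2.0, 1.87 and 1.92 against 2.53, 3.35 and 2.97 (0.43, limma adjusted p = 0.251). Npr3, the clearance receptor of natriuretic peptides, was at 1.67, 2.74 and 2.53 against 3.19, 4.78 and 3.91 (0.59, limma adjusted p = 0.279). Npr1, the signalling receptor, overlapped at 7.25 to 8.83 against 6.44 to 8.36.

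Among the 10 genes next in order after the 4 that rose, Nrep was at 2.75, 2.40 and 2.45 FPKM in IgAN and 6.67, 4.77 and 7.25 in GQYS (1.02, limma adjusted p = 0.0548). Hpgd, the enzyme that inactivates prostaglandins, was at 3.40, 4.46 and 4.28 against 6.59, 7.21 and 7.91 (0.71, limma adjusted p = 0.0626). Adamts5, a protease of matrix proteoglycans, was at 1.02, 1.03 and 1.39 against 2.10, 2.44 and 2.72 (0.67, limma adjusted p = 0.0626). In all 3 genes every IgAN library was also below every WT library. Cdc42ep3, an effector of the small GTPase CDC42, was at 1.26, 2.59 and 2.88 against 6.34, 5.83 and 5.47 (1.12, limma adjusted p = 0.0676), and Fpgs, which retains folates in cells, at 17, 17.7 and 15.6 against 26.1, 23.1 and 24.6 (0.53, limma adjusted p = 0.0842). Ttc22, Evpl and Vstm5 had differences of 0.77, 0.83 and 0.65 and limma adjusted p of 0.0626, 0.0656 and 0.0968. None of the 10 passed the threshold.

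Genes of scar matrix had no call. Of 25 tested matrix and profibrotic genes, 8 had ranges apart downward and 3 upward, beside 9.29% and 9.84% of all tested genes. The median of -0.21 was -0.13 without IgAN replicate 1. Thbs1, thrombospondin-1, an activator of TGF-beta, was at 18.8, 13.8 and 12.5 FPKM in the IgAN libraries and at 7.67, 10.3 and 8.4 in the GQYS libraries (-0.70, limma adjusted p = 0.207), and Fn1, fibronectin, at 5.30, 3.65 and 4.42 against 2.71, 3.61 and 3.33 (-0.37, limma adjusted p = 0.395). The GQYS and WT libraries of Thbs1 overlapped. Tnc, tenascin-C, was at 5.15, 1.6 and 1.75 against 0.793, 0.705 and 1.04 (-0.94, limma adjusted p = 0.251, and -0.54 without IgAN replicate 1). Tgfb1 overlapped at 10.04, 6.59 and 7.5 against 6.16, 6.13 and 6.70.

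Of 23 tested genes of collagen chains and their hydroxylases, 10 had ranges apart downward and 1 upward. The shares of all tested genes were 9.29% and 9.84%. The median of -0.32 was -0.18 without IgAN replicate 1. The fibrillar chains Col1a1 (9.67, 3.10 and 4.79 FPKM in IgAN, 3.52, 2.35 and 4.07 in GQYS) and Col3a1 (19.7, 6.22 and 7.65 against 5.86, 6.27 and 7.53) overlapped, with their highest value in IgAN replicate 1. The smallest p of the list belonged to the hydroxylase genes, P4ha1 at 27.1, 37.1 and 32.1 against 19.4, 21.3 and 18 (-0.68, limma adjusted p = 0.106) and P4ha2 at 16.6, 18.2 and 16 against 11.7, 10.1 and 10.8 (-0.60, limma adjusted p = 0.138). Col4a1 of the basement membrane was at 54.7, 41.2 and 46.7 against 38, 39.9 and 40.1 (-0.26, limma adjusted p = 0.562, and -0.15 without IgAN replicate 1). Col14a1, a stromal collagen, lay apart upward, at 4.52, 4.49 and 5.56 against 6.44, 7.75 and 6.41 (0.43, limma adjusted p = 0.265).

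**Figure D5:**
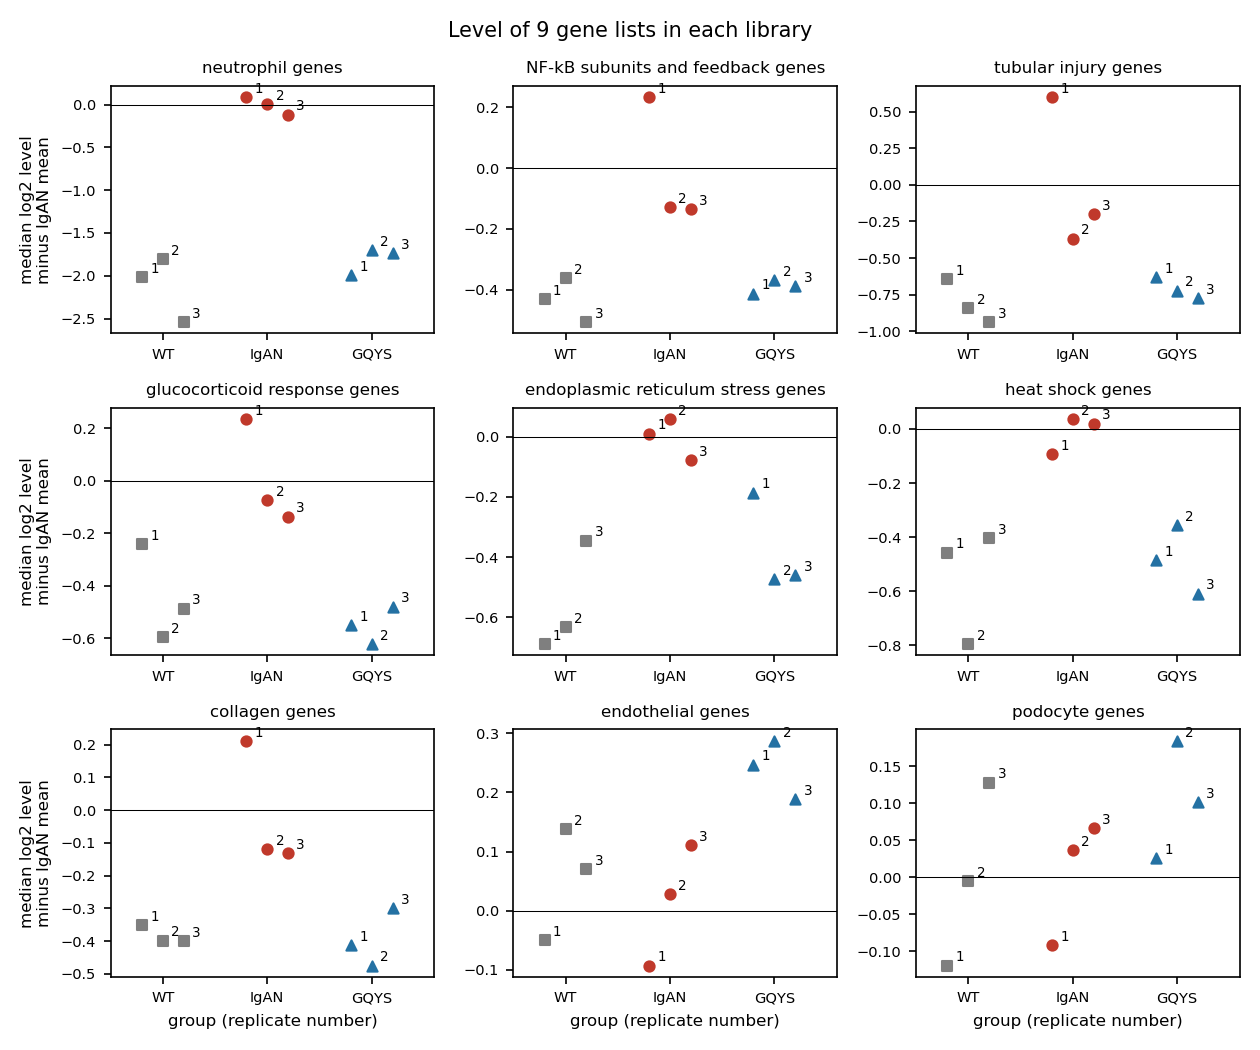
Level of 9 gene lists in each of the 9 libraries, as the median over tested members of the log2(FPKM + 1) difference from the IgAN mean, 1 panel a list and 1 point a library. IgAN replicate 1 is the highest library for the tubular injury list at 0.60, and the endothelial list lies at 0.19 to 0.29 in GQYS.

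Cholesterol synthesis and its SREBP2 targets had no call among 32 tested genes and a median of -0.21. Of the 32, 10 had ranges apart downward and 0 upward, beside 9.29% and 9.84% of all tested genes. Sqle, squalene epoxidase, was at 44, 33.5 and 30.5 FPKM in IgAN and 24.6, 16.7 and 19.1 in GQYS (-0.81, limma adjusted p = 0.144). Every GQYS library of Sqle lay below every IgAN library.

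Genes of tubule function had no call. Of 45 tested proximal tubule genes, 2 had ranges apart upward and 4 downward, shares below the 9.84% and 9.29% of all genes. Lrp2, megalin, overlapped at 117, 201 and 156 FPKM against 165, 207 and 135, and the glucose carrier Slc5a2 at 206, 232 and 249.7 against 224, 257 and 259.6. Slc22a7, an organic anion carrier, was at 99.6, 72.4 and 85.8 in IgAN and 42.3, 45.9 and 58.2 in GQYS (-0.81, limma adjusted p = 0.298), while Slc7a9, a cystine carrier, was at 52.3, 51.2 and 53.7 against 67.7, 69.95 and 69.4 (0.39, limma adjusted p = 0.268). Of 23 tested genes of principal cells of the collecting duct, 5 had ranges apart downward and 1 upward, beside the same all-gene shares. Of the 23, 19 had negative differences, and the median was -0.14 (-0.04 without IgAN replicate 2). Their summed level was 977 to 1205 FPKM in IgAN and 899.6 to 954 in GQYS, without overlap, and 826 to 969.9 in WT. Aqp2 was at 157, 174 and 104 against 87.0, 74.4 and 95.1 (-0.73, limma adjusted p = 0.205), whereas Aqp3 and the vasopressin receptor Avpr2 overlapped. Slc5a3, the osmolyte carrier of inositol, was at 26.7, 33.3 and 28.6 against 13.2, 21.5 and 15.9 (-0.80, limma adjusted p = 0.106).

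Among vitamin D genes, Cyp24a1 had the highest difference of all 11617 tested genes. This enzyme, which breaks down active vitamin D, was at 8.78, 11.8 and 32.5 FPKM in IgAN and at 28.6, 64.7 and 80.4 in GQYS, with WT between 27.1 and 35.2. Its difference of 1.75 came with overlapping ranges and a limma adjusted p of 0.192. Cyp27b1, which makes active vitamin D, was at 1.06, 1.36 and 1.27 against 0.706, 0.671 and 0.498 (-0.45, limma adjusted p = 0.230), and the receptor Vdr at 53.2, 58.2 and 66 against 69.2, 85.2 and 84.1 (0.42, limma adjusted p = 0.259). The phosphate carriers Slc34a1 and Slc34a3 and the co-receptor Kl overlapped between the arms.

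Genes known to respond to fasting and genes of heme metabolism had no call. Of 26 tested fasting and FOXO target genes, 12 had positive and 14 negative differences, with a median of -0.11. Of 15 tested heme genes, 8 had positive and 7 negative differences, with a median of 0.0041. Each list had 3 ranges apart downward and 1 upward, beside 9.29% and 9.84% of all tested genes. Depp1, a FOXO target, was at 26.5, 25.5 and 21.5 FPKM in IgAN, at 15.1, 8.28 and 15.6 in GQYS and at 2.24 to 3.44 in WT, so GQYS lay between both (-0.91, limma adjusted p = 0.167). Angptl4, an inhibitor of lipoprotein lipase, overlapped at 81.8, 50.5 and 63.7 against 38.9, 69.3 and 48.4, above the WT range of 13 to 20.3 in both arms. Alas1, the first enzyme of heme synthesis, was at 90.7, 86.4 and 95.3 against 57, 49 and 33 (-0.99, limma adjusted p = 0.124), and Flvcr1, a choline and heme transporter, at 6.13, 5.67 and 5.99 against 1.84, 4.04 and 2.89 (-0.86, limma adjusted p = 0.150). Jchain, the chain that joins IgA dimers in plasma cells, was at 4.76, 1.23 and 3.63 in IgAN, 10.1, 9.66 and 5.69 in GQYS and 24.4, 8.60 and 7.08 in WT (1.24, limma adjusted p = 0.372). Of 17 genes listed for B and plasma cells, 7 were in the table and only Jchain and Mzb1 were tested. Mzb1 overlapped between the arms. The summed level of the 7, Jchain included, was 2.39 to 7.06 FPKM in IgAN and 9.57 to 13.5 in GQYS, without overlap. In WT it was 9.15 to 29.5, and no test was run on this sum.

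In absolute FPKM the widest differences were those of very abundant genes, none of them called. Gpx3, Ass1, Akr1c21 and Selenop were among the genes for which GQYS exceeded IgAN most in mean FPKM, and GQYS lay below it most for Kap, Hspa8, Fth1, Pck1 and Napsa. Hspa8, the constitutive Hsp70 chaperone, was at 1820.3, 2109.5 and 1999 FPKM in IgAN and 1430.2, 1436 and 999 in GQYS (-0.63, limma adjusted p = 0.358). Pck1, an enzyme of gluconeogenesis, was at 1144, 1204 and 725 against 689, 391 and 810.0, with overlap. Kap, an androgen-regulated proximal tubule gene, was at 56679, 39672 and 47898 against 49518, 38922 and 48845, and its 2 arms overlapped widely.

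FPKM divides by the library total, so the share of a few genes matters for all others. The 13 mitochondrially encoded genes took 16.8%, 12.8% and 16.8% of FPKM in IgAN, 17.9%, 17.1% and 20.4% in GQYS and 25.5%, 17% and 15.4% in WT. The GQYS libraries were higher than IgAN in each case, at 18.5 ± 1.72% against 15.5 ± 2.29% (SD, n = 3 each), a difference of 3.03 percentage points with a 2-sided exact permutation p of 0.1, the smallest that 3 against 3 allows. As a share of recovered reads the difference was 1.92 points with an exact permutation p of 0.3. None of the 13 genes was called or had ranges apart, and 71 tested nuclear genes of oxidative phosphorylation had a median of -0.07. With that share as a covariate, 308 genes passed, 171 higher and 137 lower, and all 23 called genes stayed called; the part of the mitochondrial share in the differences was not tested.

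The ranges of the called genes, which were chosen by their difference between GQYS and IgAN, were also set beside those of WT. In all 19 lower genes the IgAN range was above the WT range. The GQYS range overlapped WT in 16 of them, was above it in Casp4 and below it in Fstl3 and Tsc22d3. In the 4 higher genes the IgAN range was below WT, and GQYS overlapped WT in 3 and was above it in Igfbp3. The comparisons with WT and with IgAN share the IgAN libraries, so these positions are given as values and not as a further test. How often the ranges overlap WT over all tested genes was not computed. These counts therefore have no background and do not describe the kidney transcriptome as a whole.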

How the data were processed

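Per the labels' protocols, TRIzol was used to extract total kidney RNA, and 9 libraries were made with the VAHTS Universal V6 kit. A table of FPKM values for 26139 gene symbols was deposited by the authors. Without roles, DESeq2, HTSeq, HISAT2, fastp, R 3.2.0 and GRCm39 appear in the submitters' processing notes. For annotation and strand the answer is "not given in the sources used here", which leaves reads of antisense partners unseparated. The steps between low FPKM values gave back whole reads for all 26139 genes within 0.03 reads, which gave the depths.

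The GQYS and IgAN groups were compared with limma 3.58.1 in R 4.3.3 on log2(FPKM + 1), in 1 group means model over all 9 libraries with a mean-variance trend and Benjamini-Hochberg adjustment over 11617 genes, tested on simulated data. FPKM depends on each library's total, and the added 1 understates changes of low genes. The mitochondrial share was compared with an exact permutation test. Named genes were those called, the 10 next higher and 10 next lower by p with ranges apart, the first 3 and up to 4 smallest-p members of each described list, and the 5 largest differences in mean FPKM in each direction; others are said to be chosen after their values were seen. Predicted genes were not named, and some genes that this rule selects are not reported here. The members and the 68 lists (1542 genes, 1197 tested) were chosen with earlier results of these data known, and the 13 mitochondrial symbols were respelled to match the table. Alternatives covered the pseudocount (0.1 and 0.5), the filter, scaling, the samples and prior of the fit, a replicate block, library quality weights, voom on recovered reads, a mitochondrial covariate and each library left out. Promoter windows came from RefSeq on GRCm38.p6. Figures were drawn with matplotlib 3.10.9 under Python 3.11.15.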

Additional observations from a re-analysis of the deposited data

How the results depend on the processing

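The 23 calls became 15 with a pseudocount of 0.1, 13 without the filter, 14 with a filter of 5 FPKM, 43 with the IgAN and GQYS libraries alone, 404 with library quality weights, 308 with the mitochondrial share as a covariate and 63 without WT and IgAN replicate 1. Leaving out 1 library at a time gave 6 to 54. The cause was not tested, apart from the fewer samples or genes in some fits. Quantile normalization gave 1 higher and 15 lower in place of 4 and 19. Retnlg, S100a9, Serpina3g, Csf1 and Zbtb16 were called under each of the alternatives that tested them. Of the values of called genes under alternatives, 373 stayed past the threshold and 150 did not, all in the same direction. Egr1 turned, from -0.44 to 0.0466 with library quality weights, and it was -0.066 without IgAN replicate 1. List medians changed sign in 82 cases. Most were near 0, but that of the caspase and inflammasome list went from -0.12 to 0.23 with the filter of 5 FPKM. The median of the mitochondrially encoded genes went from 0.26 to -0.087 with the mitochondrial covariate. That covariate is the share of those same genes, so this change does not test their difference. No direction is given for either list. The difference in mitochondrial share stayed positive, between 1.71 and 3.72 points with 1 library left out.

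A replicate block gave 26 calls, 21 of them shared with the 23. It ended the calls of Nap1l5 and Usp2, with limma adjusted p of 0.0545 and 0.0576, and Ccl12, Nupr1 and Esm1 were among the genes that then passed. Nothing in the labels says that equal replicate numbers pair the samples. Deviations of same-numbered IgAN and GQYS libraries correlated at 0.22, 0.35 and -0.10, and not every library correlated best with its own number. With so few libraries, each measured from its own group mean, these correlations cannot show or exclude a shared animal, litter or day. Depth limits the genes of few reads, such as Retnlg.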
